A study of Mus musculus with 18 samples.

Results

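Pecam1, Slco1c1 and Anpep are 3 genes used as markers of brain blood vessels. They were chosen by name, with earlier results of these data known. Every ac4C peak assigned to them was taken from the 6 peak lists of the series, which gave 9 of 24703 listed peaks and 3 of the 4922 mRNAs with a peak in any sample. N4-acetylcytidine (ac4C) was mapped by acRIP-seq, in which an antibody against ac4C pulls down RNA fragments that are then sequenced beside their input and a control pull-down with IgG. The tissue was the hippocampus of mice aged 3 months, with 3 5xFAD and 3 WT samples. The 5xFAD mice carry mutant human transgenes that model amyloid pathology on a C57BL/6J background under the murine Thy1 promoter, which is active mainly in neurons rather than in vessel cells. The WT mice carry no transgene. According to the methods, mice of both genotypes were perfused with buffered saline before dissection, and whole hippocampus was used without sorting of cells. The authors' peak lists, 1 for each acRIP sample, are the only data used here. The 12 libraries of input RNA and IgG pull-down enter only through the authors' peak calling, peak filtering and fold enrichment.

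The walls of brain capillaries are built from endothelial cells joined by tight junctions, from pericytes that wrap them, and from a basement membrane that both share, with astrocyte endfeet around it. The endothelial cells restrict passage between them and carry nutrients and hormones across through transporters. ac4C is written on mRNA by the acetyltransferase NAT10, and in cell lines it has been linked to mRNA stability and translation. Pecam1 encodes PECAM-1 (CD31), an adhesion molecule of the immunoglobulin superfamily at endothelial cell contacts, which platelets and leukocytes also carry. Anpep encodes aminopeptidase N (CD13), a zinc peptidase on the cell surface that removes the first amino acid of peptides and that marks pericytes in the mouse brain. Slco1c1 encodes OATP1C1, an organic anion transporter that carries thyroxine into the brain, found in rodents in brain endothelium, choroid plexus and astrocytes.

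The Pecam1 peak lay in coding sequence in the middle of the mRNA (build mm10, minus strand, RefSeq transcript NM_008816). In 5xFAD replicates 1 and 3 it spanned chr11:106688776-106689035, a length of 260 bp. In 5xFAD replicate 2 it spanned chr11:106688776-106689031, a length of 256 bp. All of it was in exon 7 of 15, which is 276 bp long, and its downstream end was the last base of that exon. On the mRNA of 3310 nt the peak began at base 1429 or 1433 and ended at base 1688, and its centre was 47.1% of the way from the 5′ end. The Anpep peak lay over the start codon (minus strand, transcript NM_008486). It spanned chr7:79841932-79842262 in 5xFAD replicate 1 and chr7:79841931-79842262 in replicates 2 and 3, lengths of 331 and 332 bp. It was in exon 2 of 21, and it held the last 11 bases of the 5′ untranslated region followed by the first 320 or 321 bases of the coding sequence. The Slco1c1 peak lay in the 5′ untranslated region (plus strand, transcript NM_021471). In the 3 WT samples it had the same ends, chr6:141524386-141524731, and a length of 346 bp. It was in exon 1 of 15, began at base 33 of the RefSeq mRNA and ended 36 bases before the start codon. Its first base is the annotated first base of a pair of GENCODE transcripts of the gene. No other RefSeq gene overlapped any of the 9 peaks.

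The coding bases under the Pecam1 and Anpep peaks are given as the sequence that the antibody fraction was enriched for in 5xFAD samples, read 5′ to 3′ on the mRNA strand from GRCm38.p6. For Pecam1 they are the 256 bases shared by the 3 samples (chr11:106688776-106689031). For Anpep they are the first 300 coding bases, all inside the peak of each sample (chr7:79841952-79842251), with the start codon in capitals. Other capitals in both mark the longest unbroken run of triplets that begin with C (CNN), since such repeats have been described near ac4C sites in human cells. The Slco1c1 peak is given by position only because it is entirely untranslated.
Pecam1: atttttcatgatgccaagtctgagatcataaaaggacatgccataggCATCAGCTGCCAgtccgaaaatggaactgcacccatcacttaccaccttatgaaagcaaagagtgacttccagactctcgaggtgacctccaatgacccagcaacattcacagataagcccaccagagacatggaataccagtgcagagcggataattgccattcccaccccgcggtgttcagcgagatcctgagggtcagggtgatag
Anpep: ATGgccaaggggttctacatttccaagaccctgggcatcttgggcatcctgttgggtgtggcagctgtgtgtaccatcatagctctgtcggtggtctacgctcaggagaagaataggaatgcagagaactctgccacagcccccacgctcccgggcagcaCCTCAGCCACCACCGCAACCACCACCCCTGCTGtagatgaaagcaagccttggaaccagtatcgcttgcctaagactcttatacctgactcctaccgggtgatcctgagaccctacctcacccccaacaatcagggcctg

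The Anpep sequence held a run of 11 CNN triplets, the Pecam1 sequence a run of 4 and the Slco1c1 peak a run of 3. Among the central 250 bp of 4273 distinct peaks of at least that length in the 6 lists, read on the transcript strand only, a run of 4 or more was present in 66.1% and a run of 11 or more in 1.22% (52 peaks). The motif of 5 triplets in a row (CNNCNNCNNCNNCNN) was present in 37.8% of these windows, in that of Anpep and in neither of the other two. The share of C in the same window was 32.4% for Anpep, against a median of 26.4% over all windows, and 79.9% of windows had less C. It was 27.6% for both Pecam1 and Slco1c1, close to that median. A match is a description of the letters and not a mapped site of acetylation.

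**Figure D1:**
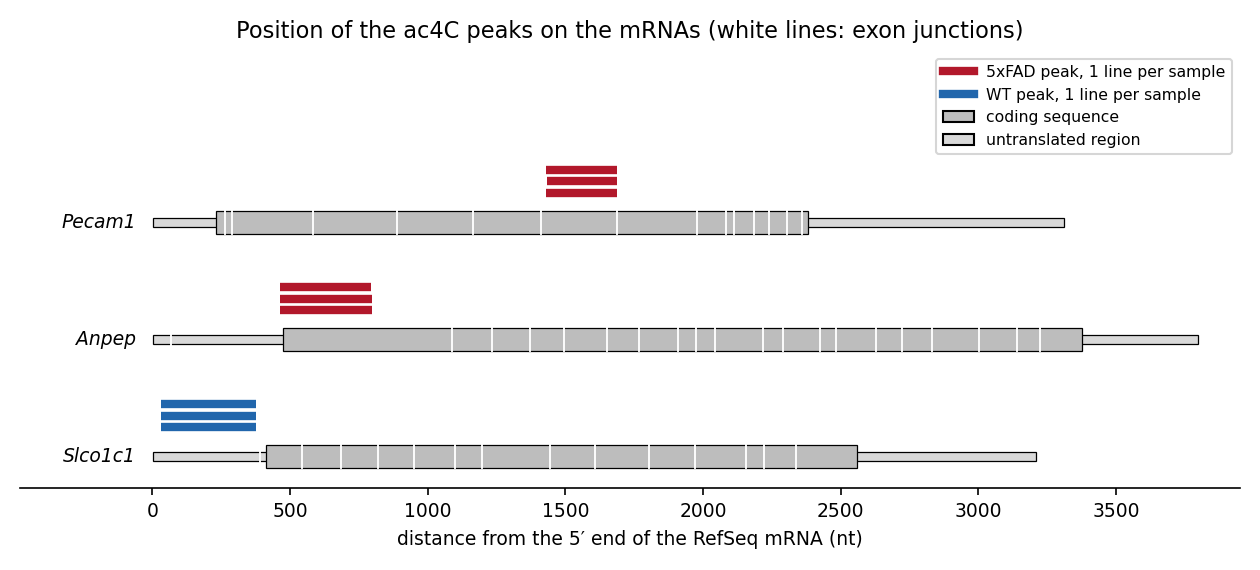
Positions of the ac4C peaks on the RefSeq mRNAs of Pecam1, Anpep and Slco1c1, with distance from the 5′ end in nt on the x axis. Each coloured line is the peak of 1 sample, 5xFAD in red and WT in blue, and white lines mark exon junctions. The Pecam1 peaks sit in 1 coding exon, the Anpep peaks start 11 bases before the coding sequence, and the Slco1c1 peaks end 36 bases before it.

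The 3 mRNAs had their peaks in different genotypes. Pecam1 and Anpep, the endothelial adhesion molecule and the pericyte peptidase, each had 1 peak in each of the 3 5xFAD samples and no listed peak in any WT sample. Slco1c1, the thyroxine transporter, had no listed peak in any 5xFAD sample and 1 peak in each of the 3 WT samples. A peak in at least 2 samples of 5xFAD and in fewer than 2 of WT was found for 34.6% of the 4493 mRNAs tested (those listed in at least 2 samples of either genotype), and the reverse for 40.4%, so that a pattern of this kind was common in these lists. The 3 genes have a stricter pattern, peaks in all 3 samples of 1 genotype and in none of the other. Of the 4493 mRNAs, 1149 had it with peaks in 5xFAD and 1315 with peaks in WT. The lists show where a peak was called, and a gene that is not on a list is not thereby shown to lack ac4C. In bulk tissue, fewer cells of a type and less RNA per cell cannot be told apart.

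The strength of a peak is given by its fold enrichment (FE) as deposited, and a sample without a listed peak was set to an FE of 0. The methods define FE as the acRIP signal minus the IgG-IP signal, divided by the input signal. The labels of the lists do not say whether the deposited values follow that formula or are the peak caller's ratio to input. Pecam1 had an FE of 288.1, 332.3 and 287.04 in 5xFAD replicates 1, 2 and 3 and was listed in no WT sample. The 3 5xFAD values lay within 1.16 times of each other, and the genotypes did not overlap. The mean was 302 ± 25.8 (SD, n = 3) in 5xFAD samples. The exact two-sided permutation test on the summed FE gave p = 0.1, the smallest value that 3 samples against 3 allow. In limma over all 4493 mRNAs, on log2(FE + 1), Pecam1 was called higher in 5xFAD (adjusted p = 2.64e-07), as were 32.3% of the mRNAs tested.

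Anpep had an FE of 153.5, 114.4 and 100 in 5xFAD replicates 1, 2 and 3 and was listed in no WT sample. Replicate 1 was the highest of the 3, and all of them were above the WT samples at 0. The mean was 123 ± 27.7 (SD, n = 3) in 5xFAD samples, with an exact two-sided permutation p of 0.1. limma called Anpep higher in 5xFAD (adjusted p = 1.33e-06), within the same 32.3%.

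Slco1c1 was listed in no 5xFAD sample and had an FE of 57.4, 124.1 and 81.5 in WT replicates 1, 2 and 3. The WT samples differed by 2.16 times between the lowest and the highest, a wider spread than for Pecam1 or Anpep, and the genotypes again did not overlap. The mean was 87.7 ± 33.8 (SD, n = 3) in WT samples, with an exact two-sided permutation p of 0.1. limma called Slco1c1 lower in 5xFAD (adjusted p = 1.17e-05), as were 39.6% of the mRNAs tested. The size of the fitted difference is not read as a fold change for these 3 mRNAs, because against a genotype listed at 0 it is set by the number added before the logarithm. Only the samples of 1 genotype gave these mRNAs a spread of their own, since the zeros of the other had none. limma combined that spread with one estimated over all mRNAs tested.

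**Figure D2:**
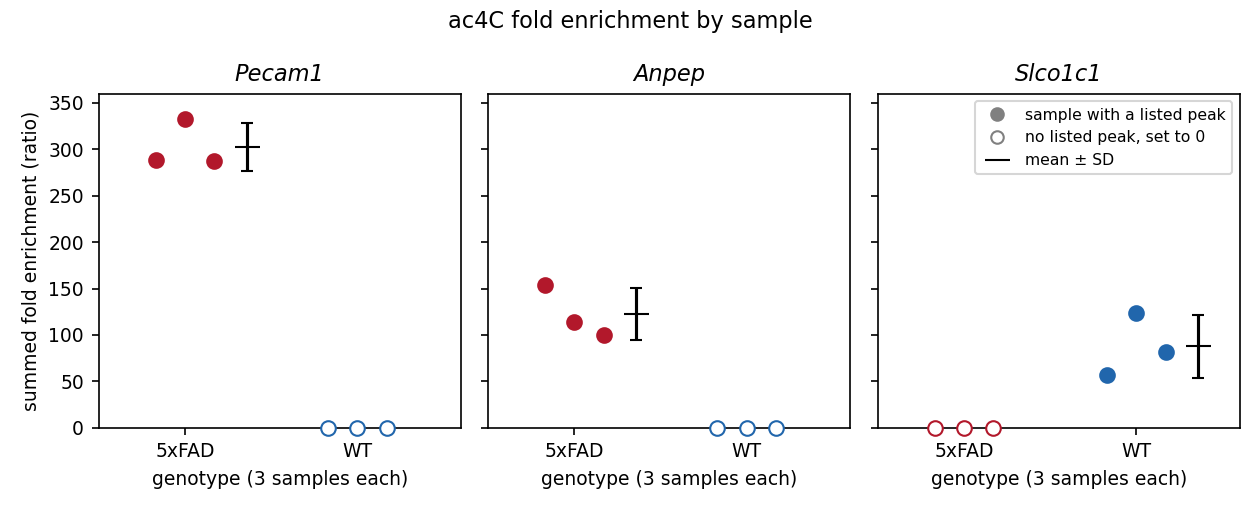
Summed FE (a ratio, y axis) of Pecam1, Anpep and Slco1c1 in each of 3 5xFAD and 3 WT samples. Filled points are samples with a listed peak, open points are samples without one, set to 0, and bars give the mean ± SD of the genotype with peaks. Pecam1 and Anpep are above 0 in 5xFAD samples alone (means 302 and 123) and Slco1c1 in WT samples alone (mean 87.7).

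Every one of the 9 peaks had the caller's score of 3100 (-10 times the log10 of the p-value), a value reached or exceeded by 54.4% to 56.4% of the peaks of a list. The false discovery rate (FDR) listed beside the Pecam1 and Anpep peaks was 30.3%, 26.5% and 22.1% in 5xFAD replicates 1, 2 and 3, the lowest rate in each of these lists. Beside the Slco1c1 peak it was 20.15%, 22.4% and 21.4% in WT replicates 1, 2 and 3. No peak of any list had an FDR under 5%, the threshold stated in the methods, and the lists were used as deposited. The number of listed peaks was 3921, 3734 and 3881 in 5xFAD replicates 1, 2 and 3 and 4151, 4558 and 4458 in WT replicates 1, 2 and 3. Read counts are not part of the lists, and the depth behind each FE is unknown here.

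Among all mRNAs listed in the same sample, Pecam1 was near the top. It had a higher summed FE than 88.9%, 90.0% and 88.7% of them in 5xFAD replicates 1, 2 and 3. Anpep was higher than 80.8%, 74.8% and 72.4% of mRNAs in these samples. Slco1c1 was higher than 58.0%, 72.6% and 64.9% of mRNAs in WT replicates 1, 2 and 3, so that its rank moved more between samples than that of Pecam1. Set against peaks with the same region label only, Pecam1 exceeded 92.9%, 94.0% and 93.1% of coding peaks. Anpep exceeded 82.7%, 79.7% and 75.6% of the peaks at start codons. Slco1c1 exceeded 51.1%, 72.5% and 67.2% of 5′ untranslated peaks. The region of the Slco1c1 peak was the rarest of the 3. Peaks labelled as 5′ untranslated made up 4.25% ± 0.272 of a list in 5xFAD and 4.43% ± 0.126 in WT, those at start codons 8.21% ± 0.186 in 5xFAD and 9.27% ± 0.25 in WT, and coding peaks 58.3% ± 0.226 in 5xFAD and 60.2% ± 0.224 in WT (SD, n = 3 each).

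The 3 mRNAs also differed in how closely their samples repeated. In 5xFAD samples the coefficient of variation was 8.54% for Pecam1 and 22.6% for Anpep, against a median of 21.7% over the 1149 mRNAs listed in all 3 5xFAD samples and in no WT sample. Of these mRNAs, 9.31% had a lower value than Pecam1 and 51.5% a lower value than Anpep. In WT samples it was 38.5% for Slco1c1, against a median of 17.3% over the 1315 mRNAs listed in all 3 WT samples and in no 5xFAD sample, and 83.3% of these were lower. Of the mRNAs listed in 3 samples of 1 genotype alone, 744 in 5xFAD and 810 in WT had a single peak in each sample, as all 3 genes did. Both ends of the peak were identical in the 3 samples for 53.6% of those 744 and for 57.8% of those 810, and at least 1 end for 82.9% and 86.5%. Slco1c1 had both ends identical, and Pecam1 and Anpep 1 end each. The peaks were long, since the median of all listed peaks was 154 bp and 72.7%, 88.2% and 90.9% of peaks were shorter than those of Pecam1, Anpep and Slco1c1. A start or end that coincided with an exon boundary of the assigned transcript, as for Pecam1, was found for 65.0% of 11606 distinct peaks.

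**Figure D3:**
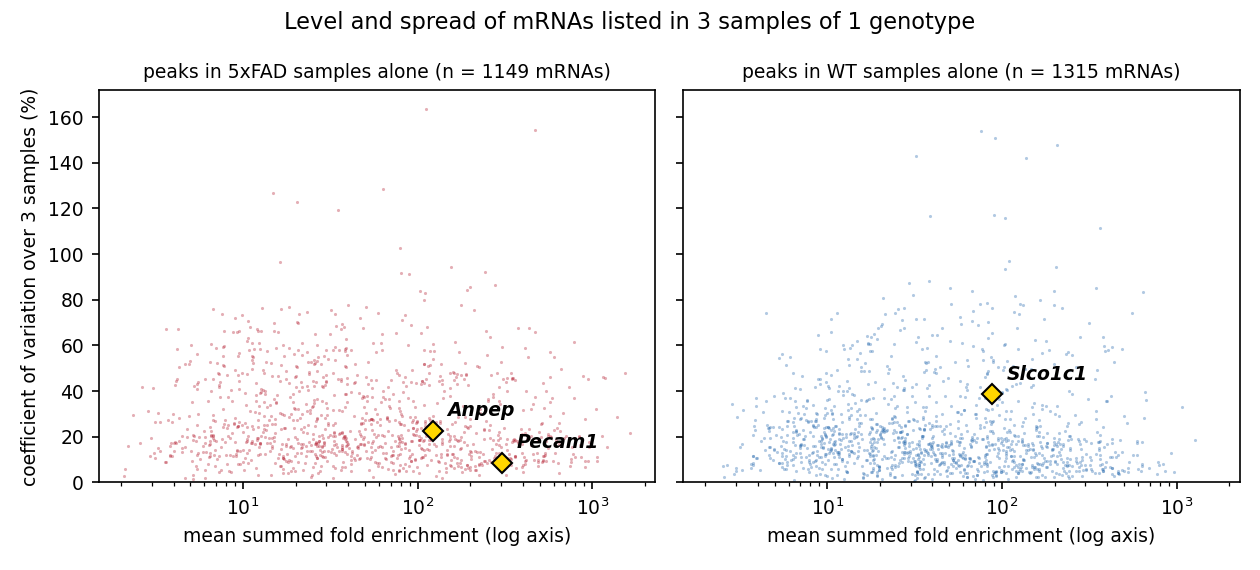
Mean summed FE (x axis, log scale) against the coefficient of variation over 3 samples (y axis, %) for mRNAs with peaks in all 3 5xFAD samples and no WT sample (left, 1149 mRNAs) or in all 3 WT samples and no 5xFAD sample (right, 1315 mRNAs). Each dot is 1 mRNA and diamonds mark the 3 vascular genes. Pecam1 lies low and to the right (302, 8.54%), Anpep near the middle of the spread (123, 22.6%) and Slco1c1 in its upper part (87.7, 38.5%).

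The mRNAs most like each gene over the 6 samples were found by the Euclidean distance between log2(FE + 1) values. Those nearest to Pecam1 were Pcgf5, a Polycomb group protein, Cacna1g, a T-type calcium channel subunit, and Oma1, a mitochondrial protease, at distances of 0.066, 0.083 and 0.10. Nearest to Anpep were Hdlbp, the RNA-binding protein vigilin, Adal, and Rasal3, a Ras GTPase-activating protein, at 0.15, 0.18 and 0.18. Nearest to Slco1c1 were Trim41, an E3 ubiquitin ligase, Ncam1, the neural cell adhesion molecule, and Slc35a1, the transporter of CMP-sialic acid, at 0.29, 0.33 and 0.40. None of these 9 mRNAs is on the vascular lists described next.

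Of 50 listed genes of brain endothelium, 15 had reproducible peaks (in at least 2 samples of 1 genotype) and 33 had no peak at all. By presence, 3 were found in 5xFAD alone, 10 in WT alone and 2 in both, where 34.6% of all mRNAs tested were found in 5xFAD alone and 40.4% in WT alone. In these counts, alone means that fewer than 2 samples of the other genotype listed the mRNA. limma called 4 higher and 9 lower in 5xFAD and left 2 uncalled, where 32.3% of all mRNAs were higher and 39.6% lower. Of the endothelial mRNAs found in 1 genotype alone, limma called all those listed in 3 samples and none listed in 2. These calls therefore largely repeat the counts by presence. The median difference of the 15 mRNAs, 5xFAD over WT, was -4.67 on the log2(FE + 1) scale against -1.21 over all mRNAs tested. The size of such a median follows the number added wherever its middle gene is at 0 in 1 genotype, and the median over all mRNAs ran between -1.80 (without 5xFAD replicate 3) and -0.44 (without WT replicate 2) over the alternatives. Pecam1 was therefore on the less common side of its own list and Slco1c1 on the more common. The other endothelial mRNAs found in 5xFAD alone were Ramp2, a subunit of the adrenomedullin receptor, and Mfsd2a, the transporter of lysophospholipids at the blood-brain barrier. Ramp2 had an FE of 430.9, 350.5 and 296.8 in 5xFAD replicates 1, 2 and 3 and was listed in no WT sample (limma, adjusted p = 4.96e-07). Mfsd2a was much weaker, at 9.41, 13.2 and 10.8 in the same samples, and also listed in no WT sample (limma, adjusted p = 6.33e-06).

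Of the endothelial mRNAs found, like Slco1c1, in WT alone, Lsr and Ptprb had the highest mean FE. Lsr, which encodes the lipoprotein receptor of tricellular junctions, had an FE of 277.9, 320.6 and 259.4 in WT replicates 1, 2 and 3 (limma, adjusted p = 2.64e-07). Ptprb, the vascular endothelial protein tyrosine phosphatase, had 159.4, 146.4 and 119.7 (limma, adjusted p = 5.01e-07). Both repeated more closely than Slco1c1 across the same samples. Egfl7, Bsg, Podxl, Esam and Mmrn2 were also listed in all 3 WT samples and in no 5xFAD sample. Cldn5, the main claudin of the barrier, and Slc2a1, its glucose transporter, were chosen for mention after their values were seen. They were listed in no 5xFAD sample and in WT replicates 1 and 2 alone, with an FE of 107.1 and 117 for Cldn5 and of 30.6 and 36.1 for Slc2a1, and neither passed the limma test (adjusted p = 0.0939 for each). Slc7a8, on a list below, had the same limma adjusted p at 572 and 543.8 in WT replicates 2 and 3 alone. The result for such mRNAs follows the sample without a peak rather than the level.

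Fli1 and Tjp1 were the endothelial mRNAs with peaks in both genotypes, and they differed in opposite directions. Tjp1, the tight junction scaffold ZO-1, had an FE of 185.6, 254.5 and 312.1 in 5xFAD replicates 1, 2 and 3 and of 58.7, 20.3 and 99.3 in WT replicates 1, 2 and 3. All 5xFAD values were above all WT values, and the difference was 2.29 ± 0.63 (SE) on the log2(FE + 1) scale (limma, adjusted p = 0.0212). Fli1, an ETS transcription factor of endothelium and blood cells, had 5.24 and 3.99 in 5xFAD replicates 1 and 2, no listed peak in 5xFAD replicate 3, and 385.9, 444.6 and 324.3 in WT replicates 1, 2 and 3 (limma, adjusted p = 0.000482). Of the endothelial defining markers, Tek, Tie1, Flt1, Kdr and Slco1a4 had no listed peak, and Cdh5 had 1 in WT replicate 2 alone. The FE summed over the endothelial list was 907 to 954 in the 5xFAD samples and 1028 to 1360 in the WT samples.

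Of 24 listed genes of pericytes and smooth muscle, 5 had reproducible peaks, and limma called 3 higher and 2 lower in 5xFAD (against 32.3% and 39.6% of all mRNAs), with a median difference of 3.12 (against -1.21). Anpep had the highest FE among them. The others higher in 5xFAD were also pericyte markers. Rgs5, a regulator of G-protein signalling, had an FE of 25, 33.3 and 22.9 in 5xFAD replicates 1, 2 and 3, and Pdgfrb, the receptor for PDGF-B that pericytes need, had 10.3, 7.35 and 6.02. Neither was listed in a WT sample (limma, adjusted p = 3.49e-06 for Rgs5 and 4.3e-05 for Pdgfrb). On the other side, Tagln, a smooth muscle protein, and Cspg4, the proteoglycan NG2 of pericytes and oligodendrocyte precursors, were listed in no 5xFAD sample. Tagln had an FE of 43.5, 101.3 and 46.2 in WT replicates 1, 2 and 3, and Cspg4 had 12.3, 9.93 and 9.42 (limma, adjusted p = 3.55e-05 and 4.3e-06). The smooth muscle genes Acta2 and Myh11 and the pericyte genes Kcnj8, Abcc9 and Vtn had no listed peak, so the direction of the list rests on few mRNAs. The FE summed over the list was 129 to 189 in the 5xFAD samples, most of it from Anpep, and 55.7 to 111 in the WT samples.

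The perivascular fibroblast and basement membrane lists held few genes with reproducible peaks, to be read against the 32.3% of all mRNAs called higher and the 39.6% called lower. Of 10 fibroblast genes, 4 had them, with 1 higher in 5xFAD (Col1a2), 2 lower (Dcn and Fbln1) and Igf2 uncalled, and a median difference of -2.93. Of 12 basement membrane genes, 4 had them, with 2 higher in 5xFAD, 1 lower and 1 uncalled, and a median difference of 0.58. Lama2, a laminin chain made by perivascular cells, had an FE of 532.5, 630.2 and 569.4 in 5xFAD replicates 1, 2 and 3 and of 223.6, 233.5 and 157.7 in WT replicates 1, 2 and 3, a difference of 1.51 ± 0.19 (SE) on the log2(FE + 1) scale (limma, adjusted p = 0.0009). Lama4, the laminin chain typical of endothelium, was listed in no 5xFAD sample and had 69.8, 66 and 58.3 in the WT samples (limma, adjusted p = 4.27e-07). Agrn, the proteoglycan agrin, had 85.3, 105.9 and 86.3 in 5xFAD samples and 131.4, 123.2 and 100.2 in WT samples, a difference of -0.35 ± 0.16 (SE) that did not pass the test (limma, adjusted p = 0.0962). Col4a1, a chain of type IV collagen, had 61.2, 45.3 and 29.6 in 5xFAD samples and 7.1 and 4.58 in WT replicates 1 and 3 alone (limma, adjusted p = 0.0133). Over the 4 vascular lists together, 28 of 96 genes had reproducible peaks, 7 in 5xFAD alone, 15 in WT alone and 6 in both, where 34.6% and 40.4% of all mRNAs tested were found in 5xFAD alone and in WT alone.

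**Figure D4:**
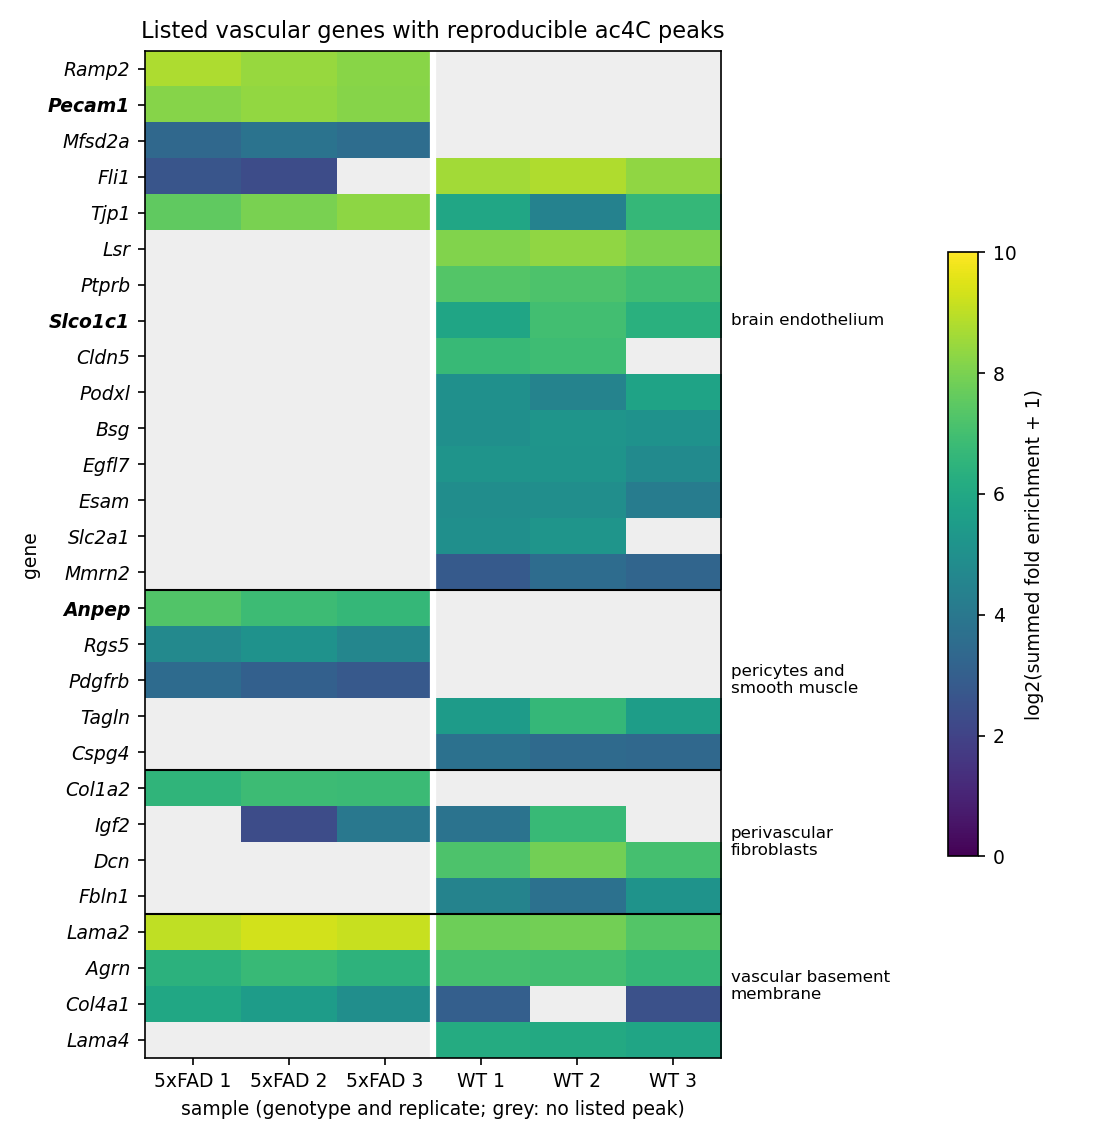
log2(summed FE + 1) (colour) of the 28 vascular genes that at least 2 samples of either genotype listed, in 3 5xFAD and 3 WT samples (columns), grouped by list. Grey marks samples without a listed peak, and Pecam1, Slco1c1 and Anpep are in bold. Of the 28 genes, 7 have peaks in 5xFAD alone (against 34.6% of all mRNAs tested), 15 in WT alone (against 40.4%) and 6 in both. The basement membrane list has none in 5xFAD alone.

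Genes listed around each of the 3 proteins were also divided between the genotypes, as were all mRNAs tested. Of 24 genes of PECAM-1 signalling and endothelial junctions, 7 had reproducible peaks. By presence, 3 were in 5xFAD alone (against 34.6% of all mRNAs), among them Ctnnb1 with a peak in 1 WT sample, and 4 in WT alone (against 40.4%). limma called 3 higher in 5xFAD and 2 lower (against 32.3% and 39.6% of all mRNAs) and left 2 uncalled, with a median difference of -3.64. Besides Pecam1, those higher were Ctnnb1, the catenin of adherens junctions that PECAM-1 can bind, and Gnaq, a G-protein subunit found in complex with PECAM-1 in endothelium. Ctnnb1 had an FE of 11.9, 14.9 and 17.9 in 5xFAD replicates 1, 2 and 3 and of 4.52 in WT replicate 2 alone, and Gnaq had 11.7, 9.18 and 9.27 in the 5xFAD samples and was listed in no WT sample. These values were far under the 287.04 to 332.3 of Pecam1. Those lower were Ctnnd1, the p120 catenin, and Esam, an adhesion molecule of tight junctions. The uncalled genes were Src, a kinase that phosphorylates PECAM-1, and Cd99l2, an adhesion molecule, both listed in WT replicates 2 and 3 alone. The phosphatases Ptpn11 and Ptpn6, which dock on the phosphorylated tail of PECAM-1, had no listed peak.

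Of 25 genes of OATP transporters and thyroid hormone handling, 8 had reproducible peaks. By presence, 2 were in 5xFAD alone (against 34.6% of all mRNAs), 5 in WT alone (against 40.4%) and 1 in both. limma called 2 higher in 5xFAD and 2 lower (against 32.3% and 39.6% of all mRNAs) and left 4 uncalled, with a median difference of -3.10. Those lower were Slco1c1 and Slco3a1, a related organic anion transporter, which was chosen for mention after its values were seen. Slco3a1 was listed in no 5xFAD sample and had an FE of 25.8, 19.9 and 15.9 in WT replicates 1, 2 and 3 (limma, adjusted p = 9.05e-06). Those higher were Klf9, a transcription factor induced by thyroid hormone, and Slc3a2, the heavy chain shared by amino acid transporters that also carry thyroid hormones. Klf9 had 68.1, 75.3 and 74 in 5xFAD replicates 1, 2 and 3, Slc3a2 had 21.8, 35.2 and 94.6, and neither was listed in a WT sample (limma, adjusted p = 2.76e-07 and 0.000349). Thra, a thyroid hormone receptor, had peaks in both genotypes, 73.5 and 48.6 in 5xFAD replicates 2 and 3 and 15, 26 and 47.8 in WT replicates 1, 2 and 3, and did not pass the test (limma, adjusted p = 0.686). Slc7a8, a light chain that pairs with Slc3a2 and carries thyroid hormones, was listed in no 5xFAD sample and had 572 and 543.8 in WT replicates 2 and 3 alone (limma, adjusted p = 0.0939). Dio2, which makes the active hormone in glia, had no listed peak. Ttr, the thyroxine carrier made by the choroid plexus, was listed in no 5xFAD sample and had 4.7 and 373.7 in WT replicates 1 and 2 alone (limma, adjusted p = 0.184).

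Of 21 listed peptidases, only some of them on the cell surface or relatives of Anpep in its family, 10 had reproducible peaks. By presence, 4 were in 5xFAD alone (against 34.6% of all mRNAs), 3 in WT alone (against 40.4%), among them Aopep with a peak in 1 5xFAD sample, and 3 in both. limma called 5 higher in 5xFAD and 2 lower (against 32.3% and 39.6% of all mRNAs) and left 3 uncalled, with a median difference of 2.70. Lta4h, the leukotriene A4 hydrolase of the same peptidase family, had the highest FE of the list, 1239, 1905 and 1799 in 5xFAD replicates 1, 2 and 3, and was listed in no WT sample (limma, adjusted p = 4.44e-07). Trhde, which degrades thyrotropin-releasing hormone, had an FE of 211.6, 321.3 and 245.3 in 5xFAD replicates 1, 2 and 3 and of 24.7, 19.3 and 31.9 in WT replicates 1, 2 and 3, a difference of 3.32 ± 0.25 (SE; limma, adjusted p = 0.000101). Like the Anpep peak, the Trhde peaks in 5xFAD were labelled as lying at the start codon, while those in WT were at the stop codon. Ace, angiotensin-converting enzyme, had 270.6, 208.8 and 162 in 5xFAD samples and 23.2 and 18.3 in WT replicates 2 and 3 alone (limma, adjusted p = 0.0238). The same direction was called for Dpp9, a dipeptidyl peptidase with peaks in all 6 samples. Its peaks were coding or at the start codon in 5xFAD and in the 3′ untranslated region in WT. Aopep ran the other way, with 3.86 in 5xFAD replicate 3 alone and 204.7, 190.6 and 204 in the WT samples (limma, adjusted p = 0.000319). Its peaks too differed in label, at the stop codon in 5xFAD and 3′ untranslated in WT. Dpp8, which was listed in no 5xFAD sample, was also called lower in 5xFAD. Ece1, which cleaves big endothelin, was listed in WT replicates 2 and 3 alone and was not called. Enpep, an aminopeptidase for acidic residues that pericytes also carry, had no listed peak.

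Markers of other cells in the tissue were also called in both directions, to be read against the 32.3% of all mRNAs called higher and the 39.6% called lower, and their part in the values of the 3 genes was not tested. Of 12 astrocyte genes, 8 had reproducible peaks, with 1 called higher in 5xFAD and 4 lower, and the FE summed over the list was 280 to 537 in 5xFAD samples and 317 to 451 in WT samples. The median difference of the astrocyte list was 0.79, against -1.21 over all mRNAs tested. Aqp4, the water channel of the endfeet around vessels, had 1.84 in 5xFAD replicate 2 alone and 309.5, 96.5 and 257.5 in WT replicates 1, 2 and 3 (limma, adjusted p = 0.000217). Slc4a4, the astrocyte gene called higher, had 301.4, 390.5 and 183.7 in 5xFAD replicates 1, 2 and 3 and was listed in no WT sample (limma, adjusted p = 4.53e-06). Of 15 genes of microglia and blood cells, which include other cells that carry PECAM-1, Cx3cr1 and Tmem119 had reproducible peaks and both were called lower in 5xFAD, 12 had no peak, and the summed FE was 0 to 8.04 in 5xFAD samples and 305 to 1161 in WT samples. Nearly all of the WT sum was that of Tmem119, at 919.8, 287.1 and 1139 in WT replicates 1, 2 and 3. Csf1r, P2ry12, Ptprc and Itga2b were among those without a peak. Of 8 choroid plexus and ependyma genes, Ttr alone had one. Neuronal genes, the main content of the tissue, had reproducible peaks for 9 of 10, with 1 called higher and 3 lower. Oligodendrocyte genes had them for 5 of 10, with 2 called higher and 2 lower.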

How the data were processed

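Peaks of ac4C came from 6 lists, 1 for each 5xFAD and WT acRIP sample. According to the methods and the submitters' processing notes, the authors trimmed reads with cutadapt 1.9.3, checked them with FastQC, aligned them to mm10 with HISAT2 2.04, called peaks per sample with MACS against the input, kept peaks on exons of protein-coding genes and removed those that overlapped an IgG-IP peak. The FE is a ratio deposited by the authors, the FDR is in percent as deposited, and the score is -10 times the log10 of the p-value, as deposited by the authors. None was recomputed. Cells that a spreadsheet had turned into dates were decoded, at most 4 numbers, 1 gene name and 1 identifier in a list. The depth per sample is unknown here, since the lists hold no counts, and the 3 samples of a genotype limit the precision. The paper calls them biological replicates. For the 3 genes, the limma p-values rest on the spread in 1 genotype and on that estimated over all mRNAs tested. Their permutation p-values rest only on the separation of the genotypes.

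FE was summed over the peaks of an mRNA, with 0 for a sample without a peak and no scaling between samples. Exact two-sided permutation tests used scipy 1.17.1. limma 3.58.1 (R 4.3.3) was run on log2(FE + 1) over the 4493 mRNAs listed in at least 2 samples of either genotype, which includes mRNAs of 1 genotype, and a call needed a Benjamini-Hochberg adjusted p under 0.05 together with a change of 2-fold or more. The script was tested on simulated data modelled on mRNAs with peaks in all 6 samples. An mRNA at 0 throughout 1 genotype, as each of the 3 genes is, was not simulated. Sequences and exons were read from RefSeq GRCm38.p6, the assembly of mm10, and first bases of transcripts from GENCODE. Cytosine content and CNN runs were counted on genomic windows, which for a peak reaching past an exon include intron. The 3 genes, the gene lists and the tests were chosen with earlier results of these data known. The genes named are the 3 genes, for each the 3 mRNAs of nearest pattern, for each vascular list and each list around 1 of the 3 proteins up to 4 genes per genotype with the highest mean FE among those with reproducible peaks, for the lists of other cell types only some of these, vascular genes with peaks in both genotypes and the defining cell markers, and others are named as chosen after their values were seen or without values. Alternatives were pseudocounts of 0.1 and 10, the highest FE in place of the sum, peaks with an FE of at least 5, scaling by the median of a list, a replicate block, another variance model, no filter or a minimum mean FE of 10, leaving out each sample, and identical ends in place of an overlap of 1 bp.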

Additional observations from a re-analysis of the deposited data

How the results depend on the processing

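Each of the 3 genes was set to 0 in every sample of the other genotype, so no alternative could reverse its direction. Only the limma call could change, higher in 5xFAD for Pecam1 and Anpep and lower for Slco1c1. That call held with 0.1 or 10 added before the logarithm and with FE scaled by the median of each list. It also held under another variance model and without any 1 sample of the genotype that had the peaks. The largest adjusted p, that with the replicate block, was 0.000246 for Pecam1, 0.000276 for Anpep and 0.000557 for Slco1c1. Apart from the block, the other alternatives could not move the values of these genes, which had 1 peak per sample, well above the minimum FE, and none in the other genotype. The fitted difference on the log2 scale, 5xFAD over WT, was 4.96 with 10 added and 11.56 with 0.1 added for Pecam1, 3.71 and 10.24 for Anpep, and -3.23 and -9.71 for Slco1c1, so its size is not a fold change.

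Deviations of same-numbered 5xFAD and WT samples from their group means had correlations of -0.013, -0.013 and -0.015. Many mRNAs were set to 0 in every sample of 1 genotype and so had no deviation there, which holds these correlations near 0. They cannot show whether the replicate numbers pair the samples. With the replicate block no call changed for the 3 genes, 1431 mRNAs were called higher in 5xFAD and 1766 lower. The 9 peaks form 3 regions when peaks that overlap by 1 bp are merged and 5 when both ends must be identical, because 1 end of the Pecam1 and Anpep peaks differed by a few bases in 1 sample each. The count of mRNAs called higher in 5xFAD was 1453 and ran between 1089 and 1556 over the alternatives, and the count called lower was 1780 and ran between 1331 and 1933. The FDR column, with no value under 20.15%, and the 3 samples of a genotype limit how firmly a single peak can be read.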
